A study of Mus musculus with 4 samples.

Results

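The genes described here are 40 mouse genes of the redox defence and thioredoxin system, taken by symbol from the annotation in the array files out of 34844 gene names, of which 22066 genes were matched to RefSeq. They are the thioredoxins with their reductases and the inhibitor Txnip, the peroxiredoxins with sulfiredoxin, the genes of glutathione supply and use, the superoxide dismutases with catalase, and the NRF2 pathway with some of its target genes. They were grouped by function, with earlier results of these data known, and 63 probes on the array carry their names. Of these probes 57 gave a signal well above background on all 4 arrays, 3 on some arrays and 3 on none. With a gene taken as the mean of its measured probes, 39 of the 40 genes were measured in each tissue. The gene left out is Slc7a11, the cystine carrier that feeds glutathione synthesis, whose single probe was not well above background on any array.

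Thioredoxin is a small protein that reduces disulfides in other proteins and is itself reduced by thioredoxin reductase with NADPH. In its reduced form it binds the kinase ASK1 and keeps it inactive, and oxidation of thioredoxin releases the kinase, so that ASK1 is one of the known sensors of oxidant stress. Most peroxiredoxins take electrons from thioredoxin to remove peroxides, and glutathione serves a second set of peroxidases and transferases. The transcription factor NRF2 induces many of these genes when its repressor KEAP1 is oxidised. In brown adipose tissue, which is dense in mitochondria, the mitochondrial members of these families face the oxidants that the respiratory chain makes.

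Gene expression was measured in interscapular brown adipose tissue (iBAT) and epididymal white adipose tissue (eWAT) of wildtype (WT) and ASK1-deficient (ASK1KO) mice under normal conditions. The mice were male, 10 weeks old and of C57BL/6J background, the knockout was global, and WT and ASK1-deficient mice came from separate breedings. Each of the 4 conditions has 1 one-colour array, hybridised with Cy3-labelled RNA pooled from 3 mice. With no replicate of a condition, the variation among mice cannot be estimated, and genotypes were not tested within a tissue. The value of each array is the scanner's processed signal, and the log2 ratio of 2 arrays was taken after dividing each signal by the 75th percentile of its array, which was 356 in WT and 371 in ASK1KO iBAT, and 673 in WT and 634 in ASK1KO eWAT.

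On the 4 arrays 28985 to 33389 of 55681 probes were well above background, and no spot was saturated. Map3k5, the gene of ASK1, has 2 probes. At one of them the signal was 448.0 in WT and 117 in ASK1KO iBAT, and 701 in WT and 194 in ASK1KO eWAT. At the other probe the log2 ratio, ASK1-deficient over WT, was near 0 in iBAT, -0.06, and -0.51 in eWAT. Of the brown adipocyte markers 12 of 14 measured in WT and 10 of 12 in ASK1-deficient mice were at least 2-fold higher in iBAT than in eWAT, and all 8 white adipocyte markers were at least 2-fold lower in both genotypes. Technical error was gauged from probes spotted repeatedly. The SD among their spots, for the genotype log2 ratio, lay at a median of 0.087 over 276 probes in iBAT and 0.059 over 292 probes in eWAT. It covers the array and not the mice.

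Promoter sequence is shown for the 2 members with the largest genotype ratios in iBAT, Txnip and Srxn1. The sequences are the 250 bases before the annotated start in RefSeq (GRCm38.p6, plus strand), chr3:96557707-96557956 for Txnip and chr2:152105274-152105523 for Srxn1, written 5′ to 3′. In Txnip the capitals mark 2 copies of CACGAG that lie 5 bases apart, letters known from the carbohydrate response element of this gene. In Srxn1 the capitals mark matches to the core letters of the antioxidant response element, TGACNNNGC or TGAGNNNGC on either strand, the kind of site NRF2 binds.
Txnip: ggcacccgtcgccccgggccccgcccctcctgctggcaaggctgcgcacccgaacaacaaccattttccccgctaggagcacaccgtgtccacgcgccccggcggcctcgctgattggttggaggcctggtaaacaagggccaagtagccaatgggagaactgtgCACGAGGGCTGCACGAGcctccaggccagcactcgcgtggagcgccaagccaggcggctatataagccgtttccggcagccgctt
Srxn1: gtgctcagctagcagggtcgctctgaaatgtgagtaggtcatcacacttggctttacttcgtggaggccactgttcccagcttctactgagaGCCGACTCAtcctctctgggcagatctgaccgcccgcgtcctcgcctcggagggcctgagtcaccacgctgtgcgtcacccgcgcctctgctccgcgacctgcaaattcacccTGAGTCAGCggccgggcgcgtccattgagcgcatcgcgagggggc
The paired CACGAG letters, which were written for the Txnip promoter and searched on both strands, occurred in 1 of 32851 promoter windows of this length (0.00304%), that of Txnip, where the match ends 68 bases before the start. The Srxn1 window holds 2 matches to the antioxidant response element letters, 149 and 36 bases before the start, and 1 of them overlaps a match to the AP-1 letters TGAGTCA. These letters are common. Promoter windows were at hand for 33 members, of which 11 hold a match, and 23.0% of all 32851 windows hold one beside 25% of the 44 windows of members. A match describes the letters and not a bound site.

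Between genotypes most redox genes lay close together, with Txnip as the exception. In iBAT 3 of 39 members were at least 1.5-fold apart between ASK1-deficient and WT mice, beside 8.78% of 14377 genes measured, and 1 of 39 was at least 2-fold apart, beside 1.85% of all genes. In eWAT 1 of 39 was at least 1.5-fold apart, beside 4.05% of 15377 genes, and 0 of 39 were at least 2-fold apart, beside 1.15%. Txnip was higher in the ASK1-deficient pool of both tissues. Sulfiredoxin (Srxn1) and the extracellular superoxide dismutase (Sod3) were lower in ASK1-deficient iBAT. The share of members past these folds was near that of all genes measured. The median log2 ratio of the members was -0.17 in iBAT, beside -0.07 for all genes, and 28 of 39 members were below 0, beside 59.5% of all genes. That count ran from 24 to 33 of 39 with the scaling. Below the median of all genes were 25 of 39 under the main setting, without scaling and with the other centrings. After quantile normalization or cyclic loess it was 21 of 39. In eWAT the median was -0.001 for the members and 0.02 for all genes. The iBAT median of the members depended on the normalization and was -0.05 after quantile normalization, beside -0.03 for all genes.

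**Figure D1:**
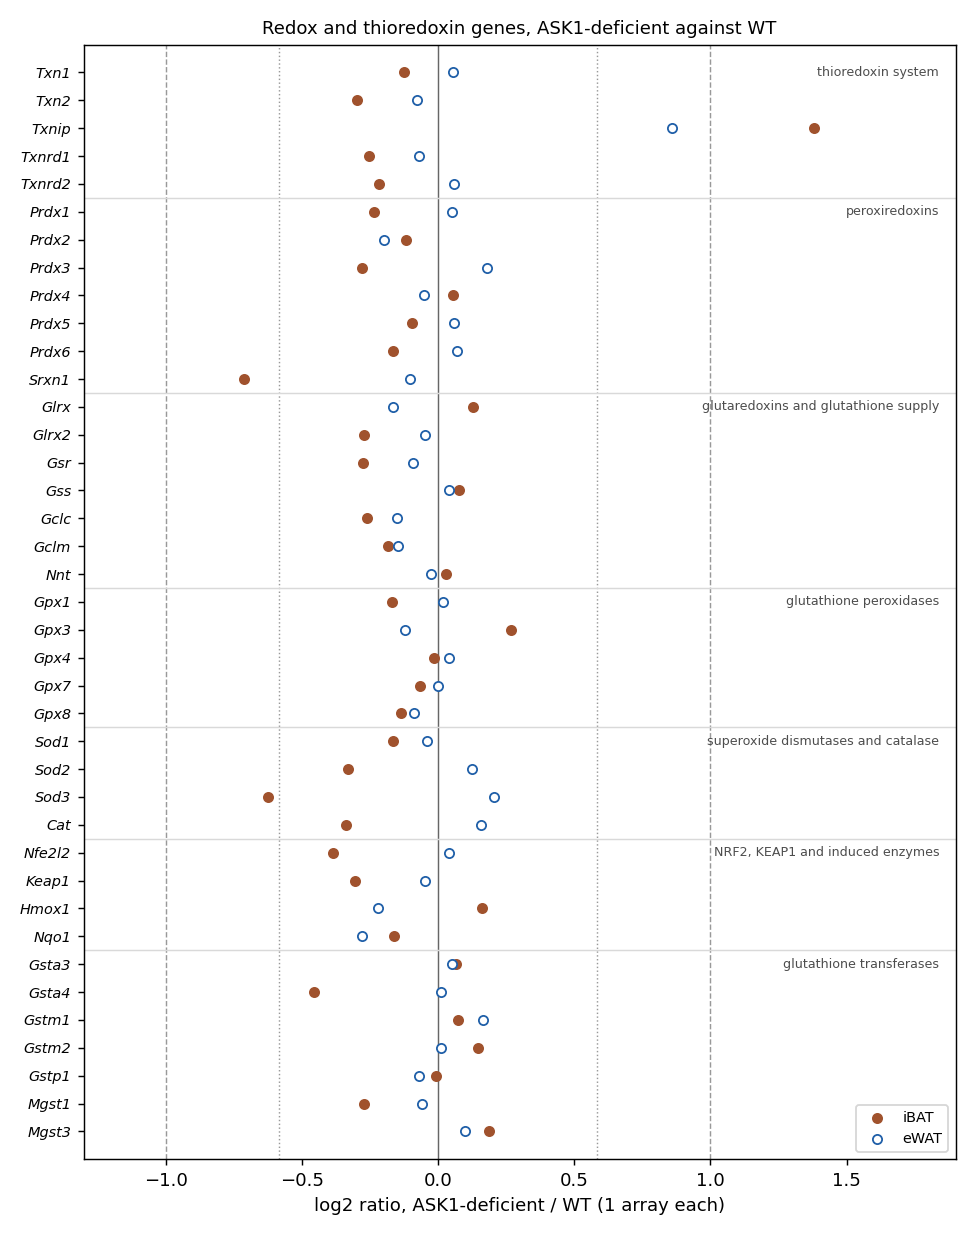
The log2 ratio of ASK1-deficient over WT signal (horizontal axis) for the 39 measured members, ordered by role, with filled points for iBAT and open points for eWAT, each from 1 array per condition. Dotted lines mark 1.5-fold and dashed lines 2-fold. Txnip lies to the right at 1.38 in iBAT and 0.86 in eWAT, Srxn1 and Sod3 lie to the left in iBAT at -0.71 and -0.62, and the other members lie between the dotted lines.

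Txnip encodes the thioredoxin-interacting protein, an arrestin that binds reduced thioredoxin and blocks it, and that also draws glucose carriers into the cell from its surface. The signal of its first probe, at mm9 chromosome 3, bases 96365147 to 96365206, read 12316 in WT and 30732 in ASK1KO iBAT, and 30319 in WT and 50715 in ASK1KO eWAT. The second probe, at bases 96364206 to 96364265, read 1768 in WT and 5235 in ASK1KO iBAT, and 4810 in WT and 8375 in ASK1KO eWAT. On both probes the 2 ASK1-deficient arrays were above the 2 WT arrays after scaling, which held for 1 of 39 members beside 4.39% of 14057 genes. The log2 ratios in iBAT were 1.26 and 1.5 at the probes, with a mean of 1.38, a 2.60-fold difference. In eWAT they were 0.83 and 0.89, with a mean of 0.86, a 1.81-fold difference. Both means were above the 95th percentile of the SD between repeated spots, 0.32 in iBAT and 0.23 in eWAT, which says nothing of the spread between mice.

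In iBAT Txnip had the highest log2 ratio of the 39 members and ranked 32 from the top of 14377 genes, and in eWAT it ranked 72 of 15377. At least 1.5-fold higher in both tissues was 1 of 39 members, beside 0.277% of 14059 genes measured in both. Counting Txnip, 8 genes had a ratio in both tissues at least as high as 0.86. In a fit of tissue and genotype over the 4 arrays with limma, in which genotype has 1 effect for both tissues and the 1 degree of freedom left for the error is the difference of that effect between the tissues, the genotype coefficient of Txnip was 1.12 with a standard error of 0.18, and its Benjamini-Hochberg adjusted p was 0.395. In that fit 0 of 14057 genes passed an adjusted p of 0.05, and 770 genes, of which Txnip was the single member, had an unadjusted p under 0.05. The adjusted p depended on the processing. It was 0.026 with normexp background correction, 0.00098 with arrays centred on their medians and 0.0013 with the values of the deposited table of the series. The deposited table is itself scaled to a median of 1 per array, so it is close to the median centring. The adjusted p stayed above 0.05 under the other 7 alternatives, of which the filter for probes above background on all 4 arrays gave the same fit as the main setting. With the arrays centred on their medians the coefficient was 1.09 with a standard error of 0.24, a slightly smaller value with a larger error, while the prior that limma shares over genes then had infinite degrees of freedom in place of 5.24. The same held for the deposited table of the series. The log2 ratio itself lay between 1.26 and 1.48 in iBAT and between 0.77 and 0.88 in eWAT over the 10 alternatives.

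**Figure D2:**
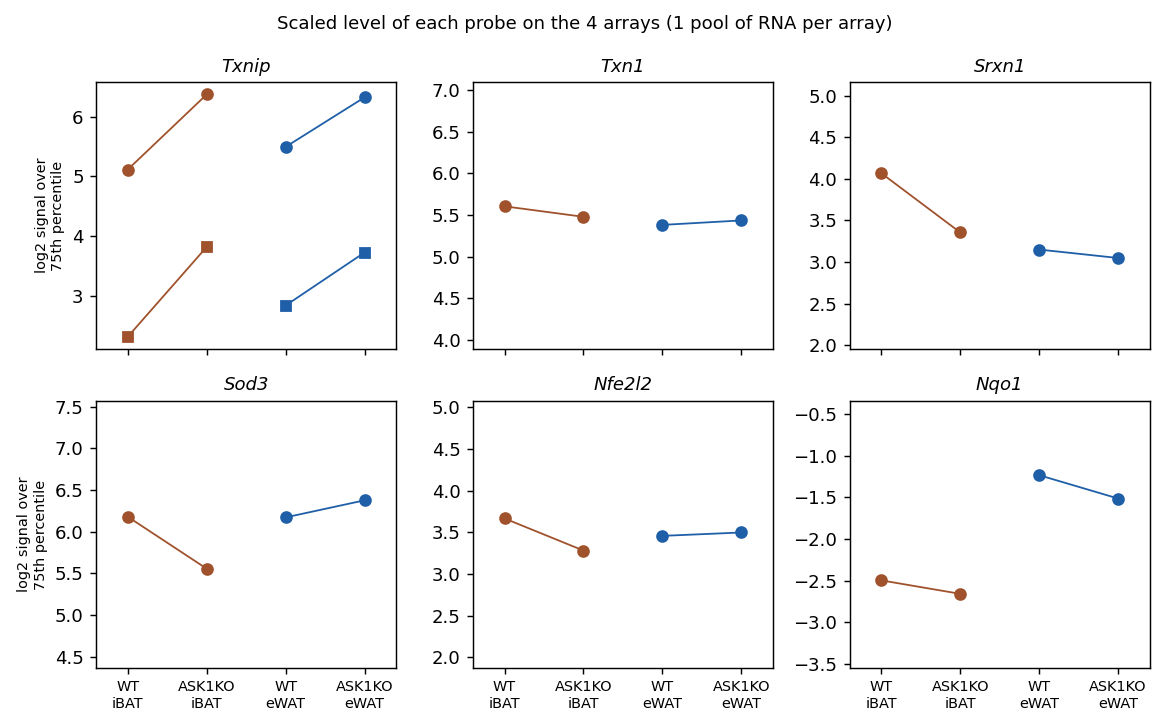
The log2 of the signal over the 75th percentile of the array (vertical axis) on each of the 4 arrays for every probe of 6 members, brown for iBAT and blue for eWAT, with lines joining WT to ASK1KO within a tissue. Each point is 1 array, and the vertical axes start at different values. Both Txnip probes are higher in ASK1KO than in WT in iBAT and in eWAT, Srxn1, Sod3 and Nfe2l2 are lower in ASK1-deficient than in WT iBAT, and Txn1 lies near 5.5 on all 4 arrays.

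The other members of the thioredoxin system stayed within 1.5-fold in both tissues. The signal of Txn1, the cytosolic thioredoxin that binds ASK1, read 17316 in WT and 16558 in ASK1KO iBAT, and 28070 in WT and 27421 in ASK1KO eWAT. The log2 ratio of Txn1 was thus small, -0.13 in iBAT and 0.05 in eWAT. The mitochondrial thioredoxin Txn2 had a log2 ratio of -0.30 in iBAT and -0.08 in eWAT. Its probes did not give the same size in iBAT, with ratios from -0.53 to -0.10. The cytosolic reductase Txnrd1 had -0.25 and -0.07 and the mitochondrial reductase Txnrd2 had -0.22 and 0.06, in iBAT and eWAT.

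Among the peroxiredoxins and sulfiredoxin 6 of 7 genes were below 0 in iBAT, beside 59.5% of all genes, and 3 of 7 in eWAT, beside 45.9%. Prdx2, Prdx4 and Prdx5 changed sign in iBAT under some alternatives. Srxn1, the sulfiredoxin that restores overoxidised peroxiredoxins, was the lowest member in iBAT. The signal of its probe, at mm9 chromosome 2, bases 151937009 to 151937068, read 5964 in WT and 3802 in ASK1KO iBAT, and 5979 in WT and 5245 in ASK1KO eWAT. The ratio was -0.71 on the log2 scale in iBAT, where 2.54% of genes were lower, and -0.10 in eWAT. The iBAT ratio lay between -0.80 and -0.58 over the alternatives and just missed 1.5-fold after quantile normalization. The peroxiredoxins themselves, most of which remove hydrogen peroxide with thioredoxin, had iBAT ratios from -0.28 for the mitochondrial Prdx3 to 0.06 for Prdx4 of the endoplasmic reticulum. In eWAT they ran from -0.20 for Prdx2 to 0.18 for Prdx3. The Prdx3 probe is spotted repeatedly, and over 10 spots its ratio was -0.28 ± 0.059 (SD) in iBAT and 0.18 ± 0.024 (SD) in eWAT.

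Prdx6, which reduces phospholipid hydroperoxides with glutathione, is covered by 4 probes that did not all run together. In eWAT 3 bright probes and 1 dim probe spanned 0.56 on the log2 scale, the largest gap between probes of a member in that tissue. At the dim probe, at mm9 chromosome 1, bases 163170713 to 163170772, the signal read 30.8 in WT and 16.8 in ASK1KO iBAT, and 96.6 in WT and 72.8 in ASK1KO eWAT. It was not well above background in ASK1-deficient iBAT, so it was at least 1.86-fold lower there than in WT iBAT. The mean of the 3 other probes was -0.17 in iBAT, so the bound holds for the dim probe and not for the gene.

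Of the superoxide dismutases and catalase, which remove superoxide and hydrogen peroxide without thioredoxin, all 4 were below 0 in iBAT under the main setting and each of the 10 alternatives, beside 59.5% of all genes under the main setting. In eWAT 1 of 4 was below 0, beside 45.9%. The signal of Sod3, the secreted enzyme of the extracellular space, read 25763 in WT and 17449 in ASK1KO iBAT, and 48494 in WT and 52609 in ASK1KO eWAT. The ratio was -0.62 on the log2 scale in iBAT, with 3.59% of genes lower, and 0.20 in eWAT. In iBAT it fell short of 1.5-fold with quantile or loess normalization, without scaling, and with the percentile taken over those probes that all arrays measured above background. The mitochondrial Sod2 had -0.33 in iBAT and 0.12 in eWAT, the cytosolic Sod1 had -0.17 and -0.04, and the peroxisomal catalase gene Cat had -0.34 and 0.16. The Cat probes had ratios of -0.53 and -0.14 in iBAT.

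The genes of glutathione supply stayed within 1.5-fold in both tissues. Gclc and Gclm, the subunits of the enzyme that starts glutathione synthesis, had log2 ratios of -0.26 and -0.18 in iBAT and of -0.15 and -0.15 in eWAT. Gss, which completes glutathione, had 0.08 and 0.04, and glutathione reductase (Gsr) had -0.27 and -0.09, in iBAT and eWAT. The glutaredoxins, which use glutathione to reduce protein disulfides, had 0.13 for Glrx and -0.27 for Glrx2 in iBAT. In eWAT the ratio was -0.17 for Glrx and -0.05 for Glrx2. Nnt, the mitochondrial transhydrogenase that makes NADPH, had 0.03 in iBAT and -0.02 in eWAT. The signal of the Slc7a11 probe was 4.58 in WT and 3.76 in ASK1KO iBAT, and 4.03 in WT and 18.7 in ASK1KO eWAT, all not well above background, so no ratio is given.

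The glutathione peroxidases had iBAT ratios from -0.17 for the cytosolic Gpx1 to 0.27 for the secreted Gpx3, and eWAT ratios from -0.12 for Gpx3 to 0.04 for Gpx4, which protects membrane lipids. The glutathione transferases, which conjugate glutathione to electrophiles, ran from -0.45 to 0.19 in iBAT and from -0.07 to 0.16 in eWAT. The lowest in iBAT was Gsta4, which acts on the lipid peroxidation product 4-hydroxynonenal. Its probe is spotted repeatedly, and over 9 usable spots its ratio was -0.45 ± 0.068 (SD) in iBAT and 0.02 ± 0.068 (SD) in eWAT. The transferases Gstm1 and Gstm2 belong to a family of near-identical genes whose probes may take signal from each other, and 1 of the Gstm1 probes is placed on chromosome 5 in the files, away from the others on chromosome 3.

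Nfe2l2, which encodes NRF2, and Keap1, which encodes its repressor, were both lower in ASK1-deficient iBAT, at -0.39 and -0.30, and had 0.04 and -0.05 in eWAT. Of the enzymes NRF2 is known to induce, heme oxygenase (Hmox1) had 0.16 in iBAT and -0.22 in eWAT. The quinone reductase Nqo1 had -0.16 and -0.28. Its signal was low, at 63.0 in WT and 58.8 in ASK1KO iBAT, and 286 in WT and 222 in ASK1KO eWAT. None of these 4 genes reached 1.5-fold in either tissue.

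Between tissues the members differed far more than between genotypes. At least 2-fold higher in iBAT than in eWAT in both genotypes were 9 of 39 members, beside 10.8% of 14058 genes. At least 2-fold higher in eWAT in both genotypes were 5 of 39, beside 10.4%. With limma, fitted over 2 arrays per tissue with genotype as a term, 15 of 39 were higher in iBAT, beside 30.8% of 14057 genes, and 11 of 39 were higher in eWAT, beside 24.6%. The members past 2-fold were 23.1% of the 39 towards iBAT and 12.8% towards eWAT, and the difference from all genes was not tested. Which tissue held more of the members turned with the scaling. The members past 2-fold were 6 towards iBAT and 8 towards eWAT after quantile normalization, 7 and 8 after cyclic loess, and 2 and 13 without scaling. The limma calls were 12 in iBAT and 16 in eWAT after quantile normalization, beside 29.4% and 29.2% of all genes. They were 13 and 14 after cyclic loess, beside 27.3% and 29.2%, and 7 and 24 without scaling, beside 9.13% and 68.2%. The p-values rest on 1 residual, the difference of the genotype effect between the tissues, and on 5.24 degrees of freedom borrowed from the other genes, so they hold no spread between pools of the same condition. Without scaling, where the median ratio of all genes was -0.80 in WT and -0.75 in ASK1-deficient mice, 5 of the 26 members called, Txnrd1, Srxn1, Glrx, Glrx2 and Gsta4, had the other sign in 1 or both genotypes. These 5 and Prdx2, Gss and Gpx4 were then no longer called.

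**Figure D3:**
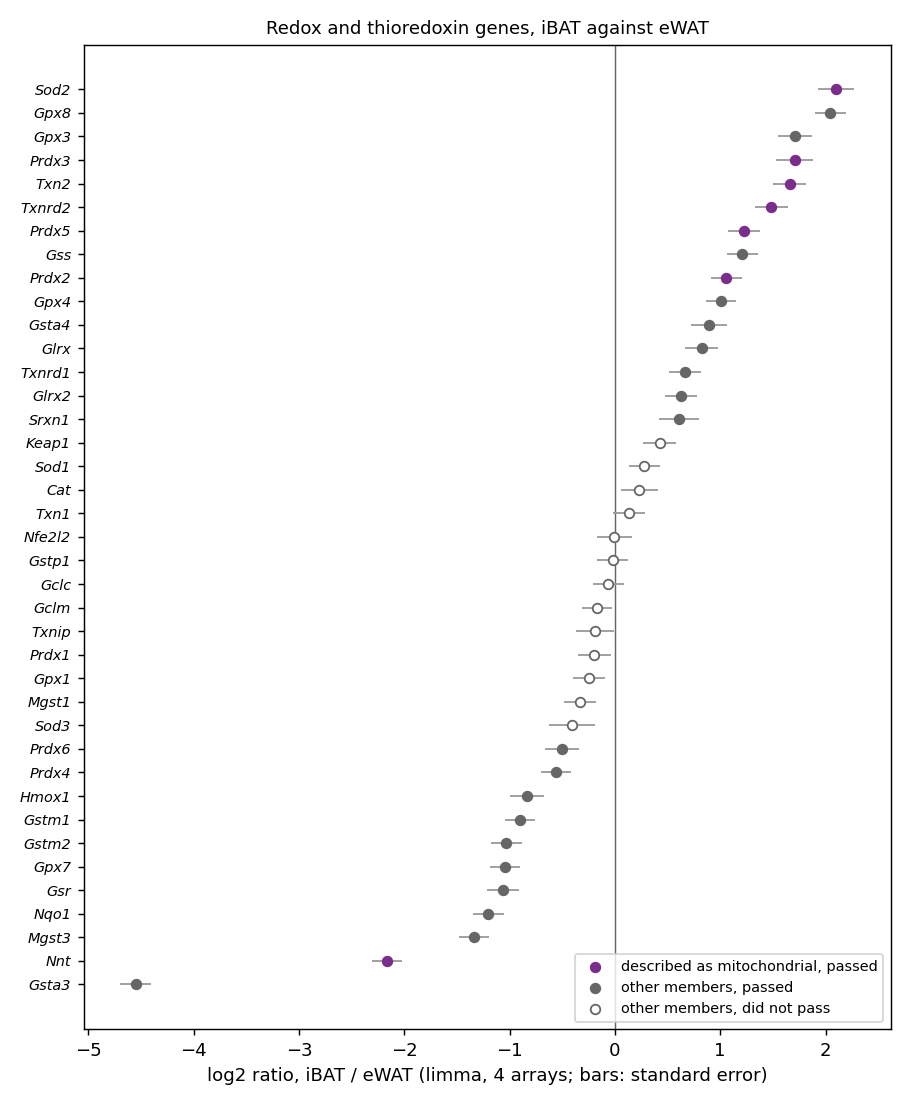
The log2 ratio of iBAT over eWAT (horizontal axis) from the limma fit over 4 arrays for the 39 measured members in order of the ratio, with bars for 1 standard error. Purple points are members the array files describe as mitochondrial, and open points did not pass an adjusted p of 0.05. The mitochondrial members lie at 1.06 or above except Nnt at -2.16, and Gsta3 has the lowest value, -4.55.

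Of the 9 members at least 2-fold higher in iBAT, 6 are described as mitochondrial in the array files. The levels that follow are signals over the 75th percentile of the array. Sod2, the mitochondrial superoxide dismutase, was at 431 in WT and 343 in ASK1KO iBAT, and 86.0 in WT and 93.8 in ASK1KO eWAT. Its log2 ratio, iBAT over eWAT, was 2.33 in WT and 1.87 in ASK1-deficient mice (limma 2.10, SE 0.17, adjusted p = 0.00018). Prdx3 was at 38.4 in WT and 31.6 in ASK1KO iBAT, and 10.0 in WT and 11.4 in ASK1KO eWAT, with ratios of 1.94 and 1.47. Both iBAT arrays were above both eWAT arrays for each of these genes, as for 18 of 39 members and 44.5% of 14057 genes.

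The mitochondrial thioredoxin and its reductase were higher in iBAT together. The brightest Txn2 probe was at 133 in WT and 111 in ASK1KO iBAT, and 31.6 in WT and 33.5 in ASK1KO eWAT. The log2 ratio of Txn2 was 1.82 in WT and 1.5 in ASK1-deficient mice. Txnrd2 was at 44.1 in WT and 37.9 in ASK1KO iBAT, and 14.3 in WT and 14.9 in ASK1KO eWAT, with ratios of 1.62 and 1.35. Another, dim Txn2 probe was well above background in iBAT alone, and there it was at least 2.17-fold higher in WT and at least 1.99-fold in ASK1KO mice. Before scaling its signal read 24.7 in WT and 24.1 in ASK1KO iBAT, and 21.5 in WT and 13.3 in ASK1KO eWAT. These signals lie near the lowest above background, so both bounds rest largely on the scaling. The cytosolic reductase Txnrd1 was higher in iBAT by limma, at 0.67 (adjusted p = 0.010). Cytosolic Txn1 had ratios of 0.22 and 0.04 and did not pass the test (adjusted p = 0.48), and Txnip had -0.45 in WT and 0.07 in ASK1-deficient mice (adjusted p = 0.40). Without scaling Txnrd1 was not called (adjusted p = 0.24), and Txn1 and Txnip were called higher in eWAT (0.0061 and 0.0087).

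The peroxiredoxins were split by family member. Prdx5, found in mitochondria and peroxisomes, had a log2 ratio of 1.30 in WT mice and 1.15 in ASK1KO mice, and its brighter probe was at 304 in WT and 281 in ASK1KO iBAT, and 127 in WT and 133 in ASK1KO eWAT. Prdx2 was at 61.3 in WT and 56.5 in ASK1KO iBAT, and 30.3 in WT and 26.4 in ASK1KO eWAT, with ratios of 1.02 and 1.10. It is mainly a cytosolic protein, although the annotation in the array files describes it as mitochondrial. Prdx4 and Prdx6 were higher in eWAT by limma, at -0.56 and -0.50, with adjusted p-values of 0.018 and 0.040. Without the filter on dim probes they no longer passed (adjusted p = 0.11 and 0.071), nor did Prdx6 with the series table (0.061). Prdx1 did not pass (adjusted p = 0.32), but did, higher in eWAT, with quantile normalization (0.041) and without scaling (0.0023). In WT its probes had opposite directions, 0.18 at the brighter and -0.29 at the other, and in ASK1-deficient mice they had -0.10 and -0.58. Srxn1 passed at 0.61 (SE 0.19, adjusted p = 0.033), with 0.92 in WT and 0.31 in ASK1-deficient mice. It no longer passed with quantile (adjusted p = 0.057) or loess normalization (0.064), without scaling (0.25) or without the filter on dim probes (0.098).

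Of the glutathione peroxidase family, Gpx8, a peroxidase of the endoplasmic reticulum, was at 38.8 in WT and 35.3 in ASK1KO iBAT, and 9.23 in WT and 8.69 in ASK1KO eWAT. Its log2 ratios were 2.07 in WT and 2.02 in ASK1-deficient mice. Gpx7, also of the endoplasmic reticulum, went the other way, at 0.892 in WT and 0.853 in ASK1KO iBAT, and 1.80 in WT and 1.80 in ASK1KO eWAT, with ratios of -1.01 and -1.07. The secreted Gpx3 was at 168 in WT and 203 in ASK1KO iBAT, and 58.9 in WT and 54.1 in ASK1KO eWAT, with ratios of 1.51 and 1.91. Its WT ratio was short of 2-fold with quantile normalization, at 0.90, and without scaling, at 0.59. These 3 peroxidases passed the limma test, with adjusted p-values from 0.00011 to 0.0015. Gpx4 had ratios of 1.03 and 0.98, just past and just short of 2-fold, and was not called with quantile normalization (adjusted p = 0.075) or without scaling (0.29). The call of Gpx1 depended on the processing. It did not pass under the main setting (adjusted p = 0.21), but was called higher in eWAT with normexp background correction (0.023), quantile normalization (0.0023), cyclic loess (0.011) and no scaling (0.0019).

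Glutathione synthetase (Gss) was at 4.47 in WT and 4.72 in ASK1KO iBAT, and 1.96 in WT and 2.01 in ASK1KO eWAT, with log2 ratios of 1.19 and 1.23. Gsr had -0.97 and -1.15 and was higher in eWAT by limma (adjusted p = 0.0016), while Gclc and Gclm did not pass, with adjusted p-values of 0.74 and 0.36. The glutaredoxins Glrx and Glrx2 were higher in iBAT by limma, at 0.82 and 0.62. The 3 Glrx2 probes differed in size, with ratios from 0.25 to 0.99 in WT and from 0.05 to 0.86 in ASK1-deficient mice. Their signals in WT iBAT ran from 145 to 449458. Glrx2 was not called with quantile normalization (adjusted p = 0.21), cyclic loess (0.066), no scaling (0.17) or no filter on dim probes (0.060), and Glrx not without scaling (0.90). Within glutathione supply single enzymes differed between the tissues in opposite directions.

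The members higher in eWAT were led by Gsta3, an alpha class glutathione transferase. Its brighter probe, on chromosome 1 of mm9 from 21255189 to 21255248, was at 4.09 in WT and 4.29 in ASK1KO iBAT, and 96.3 in WT and 101 in ASK1KO eWAT. The log2 ratio of the gene was -4.56 in WT and -4.54 in ASK1-deficient mice (limma -4.55, SE 0.14, adjusted p = 1.0e-05), and 0.323% of genes were lower in WT. Hepatocyte markers, which the labelled tissue should lack, were lower in ASK1-deficient than in WT eWAT in 8 of 8 measured genes, with a median log2 ratio of -3.33. Their ratios ran from -5.58 to -0.004, and their summed level was 636 in ASK1-deficient and 666 in WT eWAT. The ratio of Gsta3 between the same 2 arrays was 0.05, and the part of these cells in its level was not tested. Mgst3, a microsomal transferase, had ratios of -1.38 and -1.29. Its brighter probe was at 11.4 in WT and 12.9 in ASK1KO iBAT, and 28.2 in WT and 30.9 in ASK1KO eWAT. Nqo1 was at 0.177 in WT and 0.158 in ASK1KO iBAT, and 0.425 in WT and 0.35 in ASK1KO eWAT, with ratios of -1.26 and -1.14. With normexp background correction its ratios were -0.55 and -0.41, short of 1.5-fold.

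Nnt was the mitochondrial member that ran against the others. C57BL/6J mice are known to carry a deletion of several exons of this gene, and whether the probes lie within it was not determined. The probe measured on all arrays, on chromosome 13 of mm9 from 120124335 to 120124394, was at 0.952 in WT and 0.971 in ASK1KO iBAT, and 4.25 in WT and 4.35 in ASK1KO eWAT. Its log2 ratio was -2.16 in both genotypes (limma -2.16, SE 0.14, adjusted p = 8.95e-05). A second, dim probe, from 120142585 to 120142644, was well above background in eWAT alone, and was at least 2.0-fold higher than in iBAT in WT and at least 2.25-fold in ASK1KO mice. The remaining probe was not well above background on any array.

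Of the 7 members that the array files describe as mitochondrial, a grouping made after the values were seen, 6 were at least 2-fold higher in iBAT in both genotypes. The count fell to 4 with quantile normalization or cyclic loess, without Prdx2 and Prdx5, and to 1, Sod2, without scaling. Taken in each genotype alone, 6 of these 7 were at least 2-fold higher in iBAT in WT and 6 in ASK1-deficient mice. Of the 32 other measured members it was 5 in WT and 3 in ASK1-deficient mice. Over all genes so described 346 of 557 (62.1%) were at least 2-fold higher in iBAT in WT and 266 of 559 (47.6%) in ASK1-deficient mice, beside 16.4% and 12.3% of all genes measured. Their median log2 ratio was 1.29 in WT and 0.93 in ASK1-deficient mice. Between the genotypes 489 of 558 genes so described were below 0 in iBAT, with a median log2 ratio of -0.26, beside 8557 of 14377 genes measured and a median of -0.07. Of the mitochondrial members 6 of 7 were below 0, with ratios from -0.33 to 0.03 and a median of -0.22, all short of 1.5-fold. After quantile normalization 4 of 7 were below 0, with a median of -0.07. The part of this group-wide difference in the members' iBAT ratios was not tested.

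**Figure D4:**
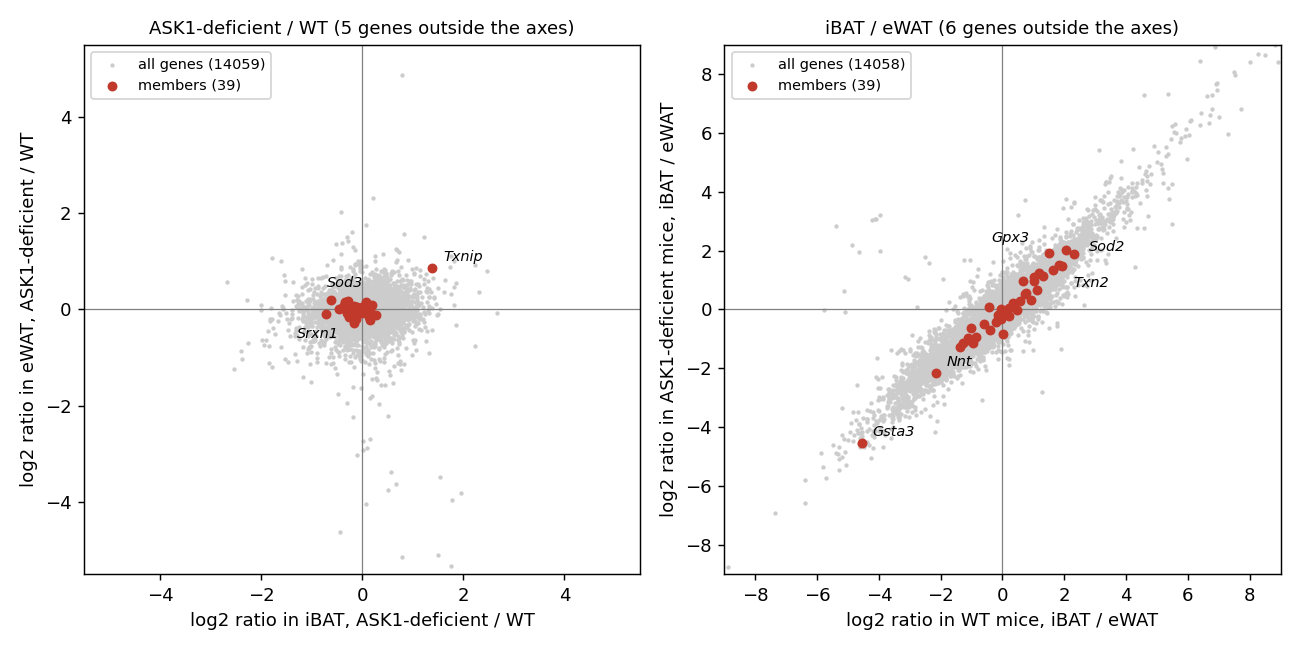
The log2 ratios of all genes (grey) and of the 39 measured members (red), on the left for ASK1-deficient over WT in iBAT (horizontal axis) and eWAT (vertical axis), and on the right for iBAT over eWAT in WT (horizontal axis) and ASK1-deficient mice (vertical axis). On the left the members gather round 0 with Txnip apart at 1.38 and 0.86. On the right they spread along the diagonal from Gsta3 at -4.56 and -4.54 to Sod2 at 2.33 and 1.87.

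Several members did not differ 2-fold between tissues in both genotypes. Of the transferases Gsta4 had log2 ratios of 1.12 and 0.66, Gstm1 -0.86 and -0.95 and Gstm2 -1.10 and -0.96 in WT and ASK1-deficient mice, and these 3 passed the limma test. Hmox1 had -1.03 and -0.64, but its probes disagreed, with -1.69 and -0.37 in WT and with opposite directions, -1.36 and 0.07, in ASK1-deficient mice, the largest gap between probes of a member. Keap1, Nfe2l2, Sod1, Sod3, Cat, Gstp1 and Mgst1 did not pass, with adjusted p-values from 0.0555 to 0.985. For some of these the call depended on the processing. Mgst1 was called higher in eWAT with normexp background correction (adjusted p = 0.019), quantile normalization (0.0018) and cyclic loess (0.0084), and so was Sod3 (0.047, 0.0088 and 0.032). Sod1 was so with quantile normalization (0.044), and Keap1 was called higher in iBAT with normexp (0.026). Without scaling all 7 were called higher in eWAT. For Sod3 the ratio was 0.01 in WT and -0.82 in ASK1-deficient mice.

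Other genes of the same pathways, set down in lists by function, were also mostly within 2-fold between genotypes. Of 43 further redox genes, among them thioredoxin-like proteins, selenoproteins and transferases, 39 were measured in iBAT, with a median log2 ratio of -0.09, and 40 in eWAT, with 0.07. Of these 1 gene was at least 2-fold apart, Gstm6, a mu class transferase, with 1.40 in iBAT and 0.66 in eWAT. It belongs to the same near-identical family as Gstm1 and Gstm2. Of 24 further genes of the NRF2 pathway 23 were measured. The median of these was -0.15 for iBAT and 0.04 in eWAT, and 0 were at least 2-fold apart. For the enzymes that supply NADPH the median was -0.42 in iBAT, beside -0.07 for all genes, and 0.04 in eWAT. In iBAT 9 of 12 measured genes were below 0, beside 59.5% of all genes. The oxidant producers had 0.03 and -0.07, the 3 metallothioneins -0.24 and -0.16, and ASK1 with its binding partners -0.06 and 0.05.

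Markers of other cell types also differed between the arrays of the genotypes. In iBAT the macrophage markers were above 0 in 13 of 13 measured genes, with a median log2 ratio of 0.78 and a summed level of 62.9 in ASK1-deficient and 47.9 in WT iBAT, while in eWAT their median was -0.04. The median of the brown adipocyte markers was -0.24 in iBAT and -0.82 in eWAT, the white adipocyte markers 0.21 and 0.24, the erythrocyte markers -0.25 and -0.15, the skeletal muscle markers 0.07 and -0.69 and the endothelial markers 0.14 and -0.11. Of the hepatocyte markers, 6 were measured in iBAT, with a median of 0.05. Of 11 epididymis markers 8 were not above background on either iBAT array and 7 on either eWAT array, the peroxidase gene Gpx5 among them. Between tissues the skeletal muscle markers had a summed level of 1038 and 1041 in iBAT and of 10.3 and 5.44 in eWAT, in WT and ASK1-deficient mice. In pooled tissue RNA, fewer cells of a type and less RNA per cell cannot be told apart, and the part of these cell types in the values of the redox genes was not tested.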

How the data were processed

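Expression was measured on Agilent Whole Mouse Genome 8×60K one-colour arrays, 1 per condition, with RNA extracted with Trizol, pooled and labelled with Cy3. The authors deposited the output of Agilent Feature Extraction 10.7.3.1, whose processed signal is a background-corrected intensity on a linear scale, not scaled between arrays. They also deposited a series table of signal values, which equal the same intensity divided by 1 constant per array, so that each median is 1. The file headers name mm9, and no genome of that build was used here, so exons were not assigned.

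Control and outlier spots were left out, log2 values were averaged over the spots of a probe, and from them the 75th percentile of the array, taken across all probes, was subtracted. The value of a gene averages the log2 ratios of those probes that both arrays measured well above background. For a probe measured so on 1 of the 2 arrays only a bound is given, set by the dim array, either at the dim signal or at the smallest signal that array has well above background, whichever is higher. Tissue and genotype were fitted with limma 3.58.1 over the 14057 genes measured on all 4 arrays, with Benjamini-Hochberg adjustment (5.24 prior and 1 residual degrees of freedom). The precision is limited by the number of arrays. The steps were run on simulated arrays in which 200 genes were changed by 2 on the log2 scale. The noise was the SD between repeated spots, so the simulation holds no spread between mice and tests the steps only.

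The members and lists were chosen with earlier results of these data known. The genes named by rule are the 40 members, Map3k5, genes of the redox lists at least 2-fold apart between genotypes and, as a marker not above background, Gpx5. The mitochondrial grouping, the promoter motifs and the arrestin genes were chosen after values were seen. Alternatives were normexp background correction (offset 50), quantile normalization, no scaling, 2 other centrings, the series table, 2 other rules for dim probes, each gene by its brightest probe and, chosen after seeing the data, cyclic loess. Analyses used R 4.3.3 and Python 3.11.15 with pandas 2.3.3, numpy 2.4.6 and matplotlib 3.10.9.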

Additional observations from a re-analysis of the deposited data

Results flagged for a closer look

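Sod3 had opposite directions in the 2 tissues. Its log2 ratio, ASK1-deficient over WT, was -0.62 in iBAT and 0.20 in eWAT. The eWAT value was below the 95th percentile of the SD between repeated spots, 0.23, and that SD covers the array and not the mice. The directions held under each of the 10 alternatives, with -0.71 to -0.47 in iBAT and 0.12 to 0.23 in eWAT. Sod3 has 1 probe and each value rests on 1 array per genotype, so the difference between the tissues was not tested.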

How the results depend on the processing

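With 1 array per condition there were no replicates to pair and none that could be left out. The limma fit holds tissue as a term and so compares the genotypes within each tissue. In iBAT the members' median log2 ratio of -0.17 became -0.0482 with quantile normalization, -0.0624 with the 75th percentile of those probes that all 4 arrays measured above background and -0.0670 with cyclic loess. In eWAT it became -0.0885 without scaling, where the median of all genes moved by the same amount, from 0.0154 to -0.0721. With the 75th percentile of those probes the median of all genes in iBAT also moved with the members, from -0.0663 to 0.0369. The 3 members at least 1.5-fold apart in iBAT became 1 with quantile normalization, Txnip. In eWAT, without the filter on dim probes, 2 members were at least 1.5-fold and 1 at least 2-fold apart, through Slc7a11, which was not above background. Txnip kept its direction and stayed past 1.5-fold in both tissues under all 10 alternatives. The 14 members at least 2-fold apart between tissues became 13 to 15 under the alternatives, but the split of 9 towards iBAT and 5 towards eWAT turned to 6 and 8 with quantile normalization, 7 and 8 with cyclic loess and 2 and 13 without scaling. Without scaling, 7 of the 14 were among the 15, and the median iBAT over eWAT ratio of all genes moved from 0.12 to -0.80 in WT. With quantile normalization 11 were shared, without Prdx2, Prdx5 and Gpx3, and with normexp background correction 11, without Prdx2, Gpx7 and Nqo1. Limma called 22 to 31 members between tissues, beside 26, and 15 in iBAT against 11 in eWAT became 12 against 16 with quantile normalization, 13 against 14 with loess and 7 against 24 without scaling. The calls over all genes moved too, from 30.8% in iBAT and 24.6% in eWAT. They became 29.4% and 29.2% with quantile normalization, 27.3% and 29.2% with loess and 9.13% and 68.2% without scaling. Members called under an alternative alone were Gpx1, Mgst1 and Sod3 with normexp, quantile and loess, with Keap1 by normexp and Prdx1 and Sod1 by quantile, and 13 members without scaling. Without the filter on dim probes Prdx4, Prdx6, Srxn1 and Glrx2 were not called, with quantile normalization Srxn1, Glrx2 and Gpx4, with loess Srxn1 and Glrx2, and with the series table Prdx6. None of the 32 values past these folds changed sign. Of the smaller ones 10 members did in iBAT and 16 in eWAT between genotypes, and 12 in WT and 10 in ASK1-deficient mice between tissues. The genotype fit called 0 genes under 7 alternatives and 24, 139 and 128 with normexp, median centring and the series table.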

Other observations

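Arrdc1, Arrdc2, Arrdc3 and Arrdc4, relatives of Txnip in the arrestin family, looked up after the Txnip values had been seen, gave smaller ratios between genotypes. The log2 ratio, ASK1-deficient over WT, was 0.62 in iBAT and 0.26 in eWAT for Arrdc2, and 0.40 and 0.39 for Arrdc3. Arrdc1 had 0.22 in iBAT and -0.11 in eWAT, and Arrdc4, whose promoter is also known to respond to glucose, had -0.21 and 0.08. Each value rests on 1 array per genotype.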
